A study of Caenorhabditis elegans with 2 samples.

Results

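The nuclear genes of the mitochondrial respiratory chain and the ATP synthase were examined for binding by the zinc finger protein of Y95B8A.8, also named zfr-1. The 42 genes were chosen by name from the 19973 nuclear protein-coding genes of the Caenorhabditis elegans assembly WBcel235, the same assembly as ce11. Their symbols begin with nuo-, cox-, atp-, sdha-, sdhb-, sdhd- or ucr-, or are gas-1, lpd-5, mev-1, isp-1, cyc-1, cyc-2.1 or asg-2. The rule uses names only, but it was set with earlier results of these data known. By role they comprise 8 genes of complex I, 5 of complex II, 7 of complex III, 1 cytochrome c, 7 subunits of complex IV, 8 assembly factors of complex IV and 6 genes of the ATP synthase.

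Binding was measured by chromatin immunoprecipitation and sequencing (ChIP-seq), in which DNA bound to a protein is pulled down with an antibody and sequenced. There was 1 group with 2 biological replicates of strain RW12277, in which CRISPR placed a TY1, EGFP and 3xFLAG tag on the protein at its own gene. Whole young adults were taken at 63 hours after bleaching and synchronisation by starvation at the L1 larval stage, and their chromatin, sonicated to 200 to 800 bp, was precipitated with an antibody against GFP. Whole animals pool all tissues, so stronger binding in some cells and binding in more cells cannot be told apart, and untagged animals were not analysed here.

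The respiratory chain passes electrons from NADH (complex I) and succinate (complex II) through complex III and cytochrome c to oxygen at complex IV, and pumps protons across the inner mitochondrial membrane. The ATP synthase uses the returning protons to make ATP. A few core subunits are encoded in mitochondrial DNA, and nuclear genes supply the other subunits and the factors that insert haem and copper into complex IV. The 42 genes are those with the names above, and further subunit genes carry other names.

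A peak is a region where the authors' peak caller found more fragments than in a control, and its summit is the point of strongest enrichment. Its signal is the value that the caller gave, and signals were compared within 1 list only. The list of peaks called on both replicates and thresholded by the authors held 1694 peaks with a median signal of 78.6, and the thresholded lists of replicate 1 and replicate 2 held 733 and 667. A gene was counted as having a peak when a summit of the thresholded list of both replicates lay within 1000 bp of an annotated 5′ end. Positions below are relative to that end, and negative ones are upstream. Sequencing depth is unknown.

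Of the 42 genes, 9 had a peak, which is 21.4% (exact Clopper-Pearson 95% interval 10.3% to 36.8%). Over all 19973 protein-coding genes the share was 6.46%, and over the 19931 other genes it was 6.43% (1282 genes, interval 6.10% to 6.78%). With the conservative list the same 9 genes had a peak (background 5.94%), with the list of replicate 1 alone 8 did (background 3.06%) and with that of replicate 2 alone 7 did (background 3.1%). Counting only the gene nearest each summit gave 8 (background 4.76%), as did the 5′ end of the gene record alone (5.96%), a window of 500 bp (4.6%), the upper part of the list by signal (3.84%) and the list without peaks near small RNA genes (5.92%). A window of 2000 bp gave 15 genes (background 9.37%), and all ranked peaks that reached the authors' score threshold gave 9 (background 6.49%). These intervals cover counting error only, and neighbouring genes can share a peak. The 9 genes were cox-5A, cox-5B, cox-6B, cox-6A, cox-4, cyc-1, cyc-2.1, atp-1 and atp-4, and they held 11 peaks. Complex IV subunits supplied 5 of the 9, and none of the set's genes of complex I, of complex II or of complex IV assembly had a peak. Those groups hold 8, 5 and 8 genes, and their intervals, from 0% to 36.9%, 52.2% and 36.9%, include the 6.46% of all genes.

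Sequences of 101 bases around the summits are shown for 4 of the 11 peaks, from the RefSeq genome of WBcel235, 5′ to 3′ on the strand of the named gene, with CG steps in capitals. They were chosen to set the peak with the highest signal beside others that differ in context. The cox-5A site (chrIII:12905157-12905257, plus strand) lies in intergenic DNA, and the cox-6B site (chrIII:2786001-2786101, plus strand) lies in a long intron of the gene. The cyc-2.1 site (chrIV:4749005-4749105, minus strand) lies between that gene and a ribosomal protein gene, and the downstream atp-4 site (chrV:6426988-6427088, minus strand) lies in coding sequence.
cox-5A: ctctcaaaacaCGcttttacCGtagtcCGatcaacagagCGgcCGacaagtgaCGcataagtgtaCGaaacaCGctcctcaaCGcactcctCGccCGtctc
cox-6B: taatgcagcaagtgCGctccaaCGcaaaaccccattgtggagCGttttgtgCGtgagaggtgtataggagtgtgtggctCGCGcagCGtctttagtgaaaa
cyc-2.1: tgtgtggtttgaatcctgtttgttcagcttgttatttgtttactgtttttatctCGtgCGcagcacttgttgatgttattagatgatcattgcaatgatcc
atp-4: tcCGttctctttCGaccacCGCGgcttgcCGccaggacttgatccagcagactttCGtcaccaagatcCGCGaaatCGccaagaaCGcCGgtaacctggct
The windows differed in how many CG steps they held, with 11 at cox-5A, 7 at cox-6B, 2 at cyc-2.1 and 11 at the downstream atp-4 site. Among the 7 windows not shown, cox-5B held 11 CG steps, cyc-1 held 8, cox-6A held 4, and atp-1, cox-4 and the upstream atp-4 site held 5 each. The other cyc-2.1 site held 3.

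**Figure D1:**
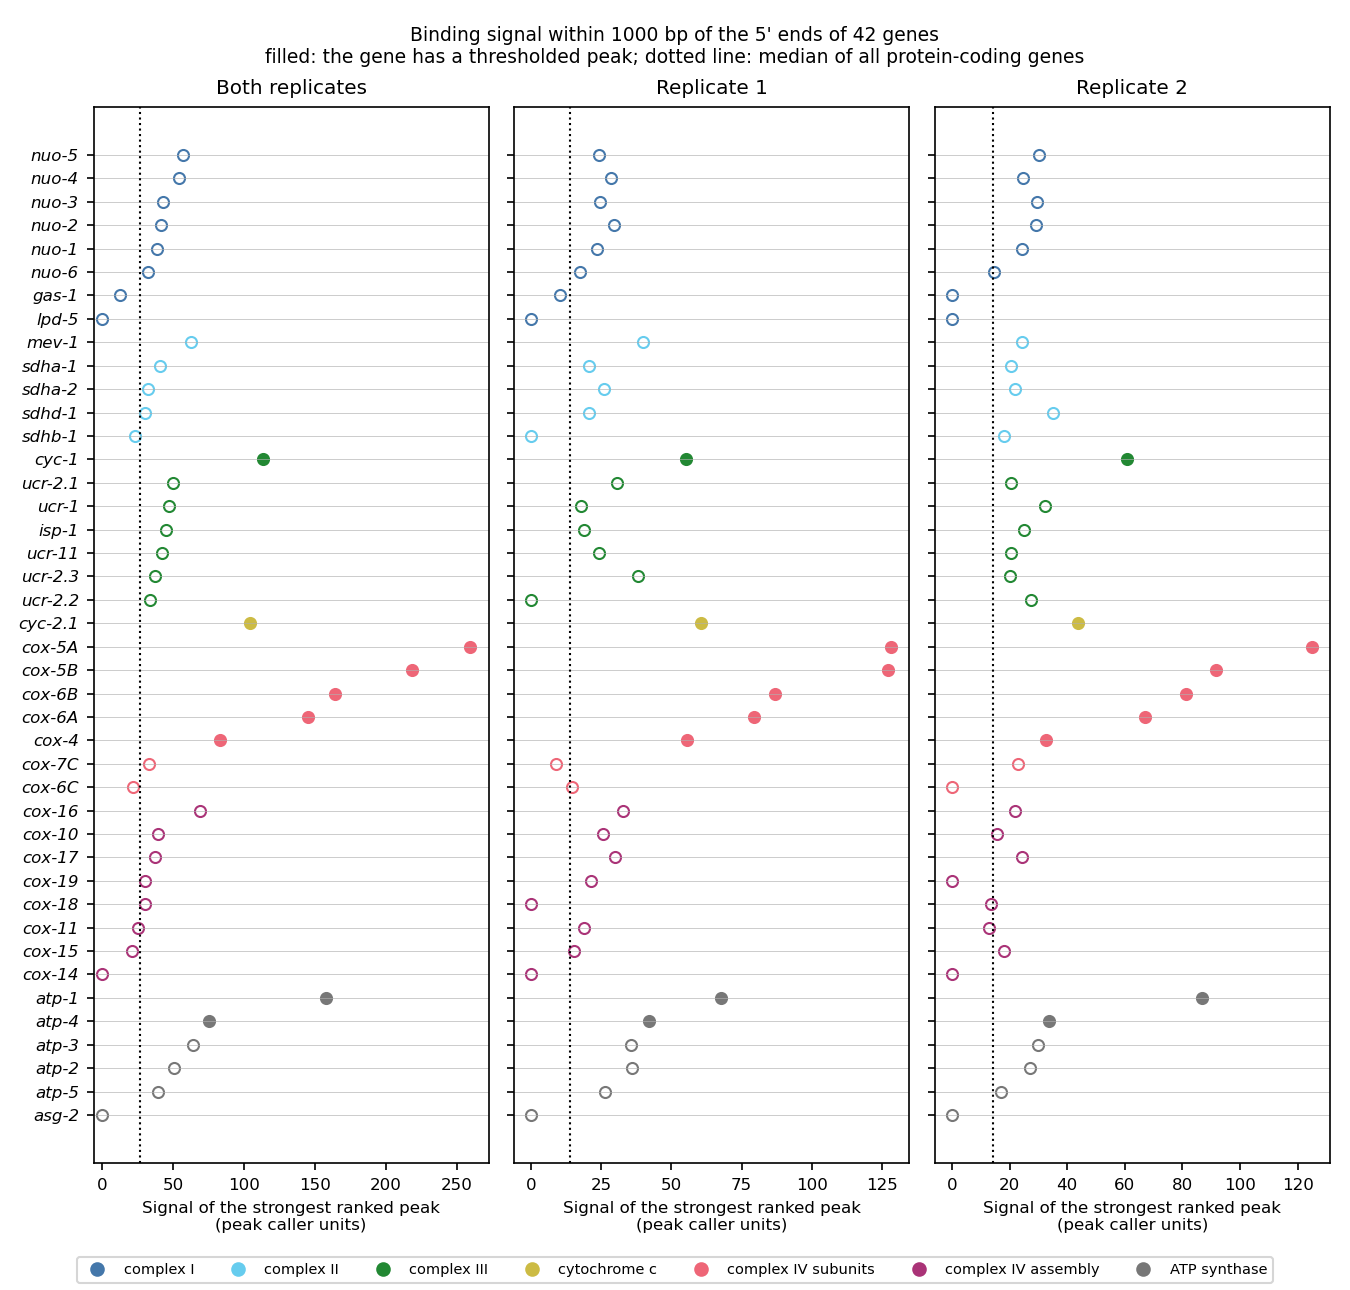
Signal of the strongest ranked peak with a summit within 1000 bp of a 5′ end of each of the 42 genes (x axis, peak caller units, one panel for each list), with genes ordered by complex and by signal in the list of both replicates. Filled points are the 9 genes with a thresholded peak, 0 means that the list holds no peak there, and dotted lines are the medians of all protein-coding genes (26.7, 13.8 and 14.1). The filled points of complex IV subunits run from 83.3 to 260 in the list of both replicates.

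None of the 8 complex I genes in the set, which encode parts of the NADH dehydrogenase, had a thresholded peak (interval 0% to 36.9%). That interval includes the 6.43% of all other genes. The ranked lists, which also hold the many weak candidate regions below the authors' threshold, give each gene a strongest signal. It can come from a different site in each list. For complex I its median was 40.0 in the list of both replicates, against 26.7 over all other genes. The highest value was at nuo-5, a core subunit of the complex, with 56.7 in the list of both replicates, 24.3 in replicate 1 and 30.4 in replicate 2. At nuo-4, an accessory subunit, it was 54.3, 28.6 and 24.6 in the same lists. Both genes thus lay above most genes in all 3 lists without reaching the threshold, and at the low end gas-1, a core subunit, had 12.6 in the list of both replicates and no ranked peak in replicate 2. For lpd-5 no list held a ranked peak.

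All 5 genes of complex II, succinate dehydrogenase, also lacked a thresholded peak (interval 0% to 52.2%, all other genes 6.43%). The strongest was mev-1, which encodes the cytochrome b560 membrane anchor, with 63.0 in the list of both replicates, 39.9 in replicate 1 and 24.4 in replicate 2. Of the flavoprotein genes, sdha-1 had 40.6, 20.8 and 20.4 and sdha-2 had 32.7, 26.1 and 21.8 in the same order of lists. The other membrane anchor gene sdhd-1 had 30.6, 20.6 and 35.2, and sdhb-1, the iron-sulfur subunit, had 23.3, no ranked peak in replicate 1 and 17.9. Positions in the same order were 306, −992 and −977 at sdhd-1 and −107, −89 and 874 at mev-1. At sdhd-1 the sites of the replicates thus lay within 100 bp of each other, and that in the list of both replicates lay elsewhere. At mev-1 the site in replicate 2 differed from those in the other lists. For sdha-1 the positions were −234, −234 and −229. In the list of both replicates sdhb-1 was the only complex II gene below the median of all other genes.

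In complex III, the cytochrome bc1 complex, cyc-1 alone of 7 genes had a peak (14.3%, interval 0.361% to 57.9%, all other genes 6.43%). It encodes cytochrome c1, the subunit that hands electrons to cytochrome c. The peak (chrI:8024593-8024882) had a signal of 113, at position −316, and its strongest ranked signals in replicate 1 and replicate 2 were 55.2 and 60.8. It overlapped a thresholded peak in each replicate. The summit lay in the 457 bp between C54G4.9 and cyc-1, which run in the same direction, and cyc-1 is the third gene of a run that starts with eif-2beta, where there was no peak. The other 6 genes, among them isp-1 for the Rieske iron-sulfur protein (45.1 in the list of both replicates), had between 34.0 and 49.8 in that list.

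The only cytochrome c gene among the 42, cyc-2.1, encodes the small protein that carries electrons from complex III to complex IV, and it had 2 peaks. The stronger one (chrIV:4748910-4749199, signal 104, position −43) overlapped a thresholded peak in each replicate, with ranked signals of 60.6 in replicate 1 and 43.6 in replicate 2. Its summit lay in the 110 bp between cyc-2.1 and the upstream gene rpl-20, a protein of the large ribosomal subunit on the same strand. The other one (chrIV:4747670-4747959, signal 79.5) was counted because cyc-2.1 has a shorter transcript, at whose 5′ end its position was 634. Its nearest gene was the downstream neighbour tctn-1, in whose coding exon the summit lay 17 bp past the 5′ end. In neither replicate was it in the thresholded list, and its ranked signals were 41.0 and 39.6. A further peak just outside the window, at −1060 from cyc-2.1 (chrIV:4749991-4750186), had a signal of 432, the fifth highest of all 1694, and lay between rpl-20 (position −294) and its nearest gene Y17G9B.5, on the opposite strand. Both cyc-2.1 peaks were thus weaker than that peak.

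Complex IV, cytochrome c oxidase, held the 3 highest signals of all the peaks at the 42 genes, and 5 of its 7 subunit genes had a peak (71.4%, interval 29.0% to 96.3%). All other genes of the set had a peak in 4 of 35 cases (11.4%, interval 3.20% to 26.7%), and this difference was not tested. The latter interval includes the 6.43% of all other protein-coding genes. The nuclear subunits of complex IV surround a catalytic core that is encoded in mitochondrial DNA. The median strongest ranked signal of the 7 genes was 145 in the list of both replicates, 79.3 in replicate 1 and 67.1 in replicate 2. Each of these medians is the value of cox-6A, whose summit lies in a small nuclear RNA gene. The peaks of cox-6A and cox-6B also lie at or near other genes, as given below. Over all other protein-coding genes the medians were 26.7, 13.8 and 14.1.

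The peak with the highest signal was at cox-5A (chrIII:12905130-12905278, signal 260, position −284), which ranked 31 of 1694. Its ranked signals were 128 in replicate 1 and 125 in replicate 2. The summit was intergenic, and no other protein-coding gene had a 5′ end within 1000 bp of it. A further peak with a signal of 105 lay at position 1270 of cox-5A, outside the window. At cox-5B the peak (chrI:9788657-9788742, signal 218, position −45) ranked 57, with 127 in replicate 1 and 91.8 in replicate 2. It too had no other gene within reach, and with 86 bp it was narrower than the 149 bp of the cox-5A peak. A peak with a signal of 59.4 lay at position 1040 of cox-5B, counted from the downstream one of its annotated 5′ ends and outside the window.

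The peak at cox-6B, a subunit on the intermembrane space side, had a signal of 164 (chrIII:2785906-2786195, position −151) and 86.7 and 81.4 in replicate 1 and replicate 2. It lay near several 5′ ends. The nearest belonged to Y71H2AM.20, a protein phosphatase 2A activator on the opposite strand (position −103), and nduc-2, a complex I subunit gene downstream of cox-6B on the same strand, lay within the window too (position −801). The gene record of cox-6B starts far upstream, at 2699663, and the peak counts for the transcript that starts at 2786202.

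At cox-6A the peak (chrIII:5080722-5081011, signal 145) was the farthest from its gene, at −857, and its ranked signals were 79.3 in replicate 1 and 67.1 in replicate 2. The summit lay inside F54D8.7, a gene for a small nuclear RNA. The 41 bases around this summit occur at 20 places in the genome, whereas those around each of the other 10 summits occur at 1 place. The part of these copies in the signal was not tested. From position alone, binding at the small nuclear RNA gene and binding at cox-6A cannot be told apart.

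At cox-4 the peak (chrI:13659349-13659638, signal 83.3, position −366) lay in an intron of a pseudogene on the opposite strand. It passed the threshold in replicate 1 (ranked signal 55.6) and not in replicate 2 (ranked signal 32.6, score 278 against the threshold of 830). The remaining subunit genes had no thresholded peak. For cox-7C the ranked signals were 33.0 in the list of both replicates, 8.86 in replicate 1 and 23.1 in replicate 2. For cox-6C they were 21.8 and 14.5, with no ranked peak in replicate 2. The subunit genes thus fell into 4 with peaks in every thresholded list, 1 that passed in the list of both replicates and in replicate 1, and 2 without a thresholded peak.

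None of the 8 complex IV assembly genes had a peak (interval 0% to 36.9%, all other genes 6.43%). The median strongest ranked signal of these genes was 30.2 in the list of both replicates, 20.2 in replicate 1 and 14.7 in replicate 2. The highest was cox-16 with 68.9, 32.8 and 22.0 in the same lists. For cox-17, which encodes a copper chaperone, the values were 37.6, 29.96 and 24.5, and its peak had a score of 820, just below the threshold of 830. No list held a ranked peak at cox-14.

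**Figure D2:**
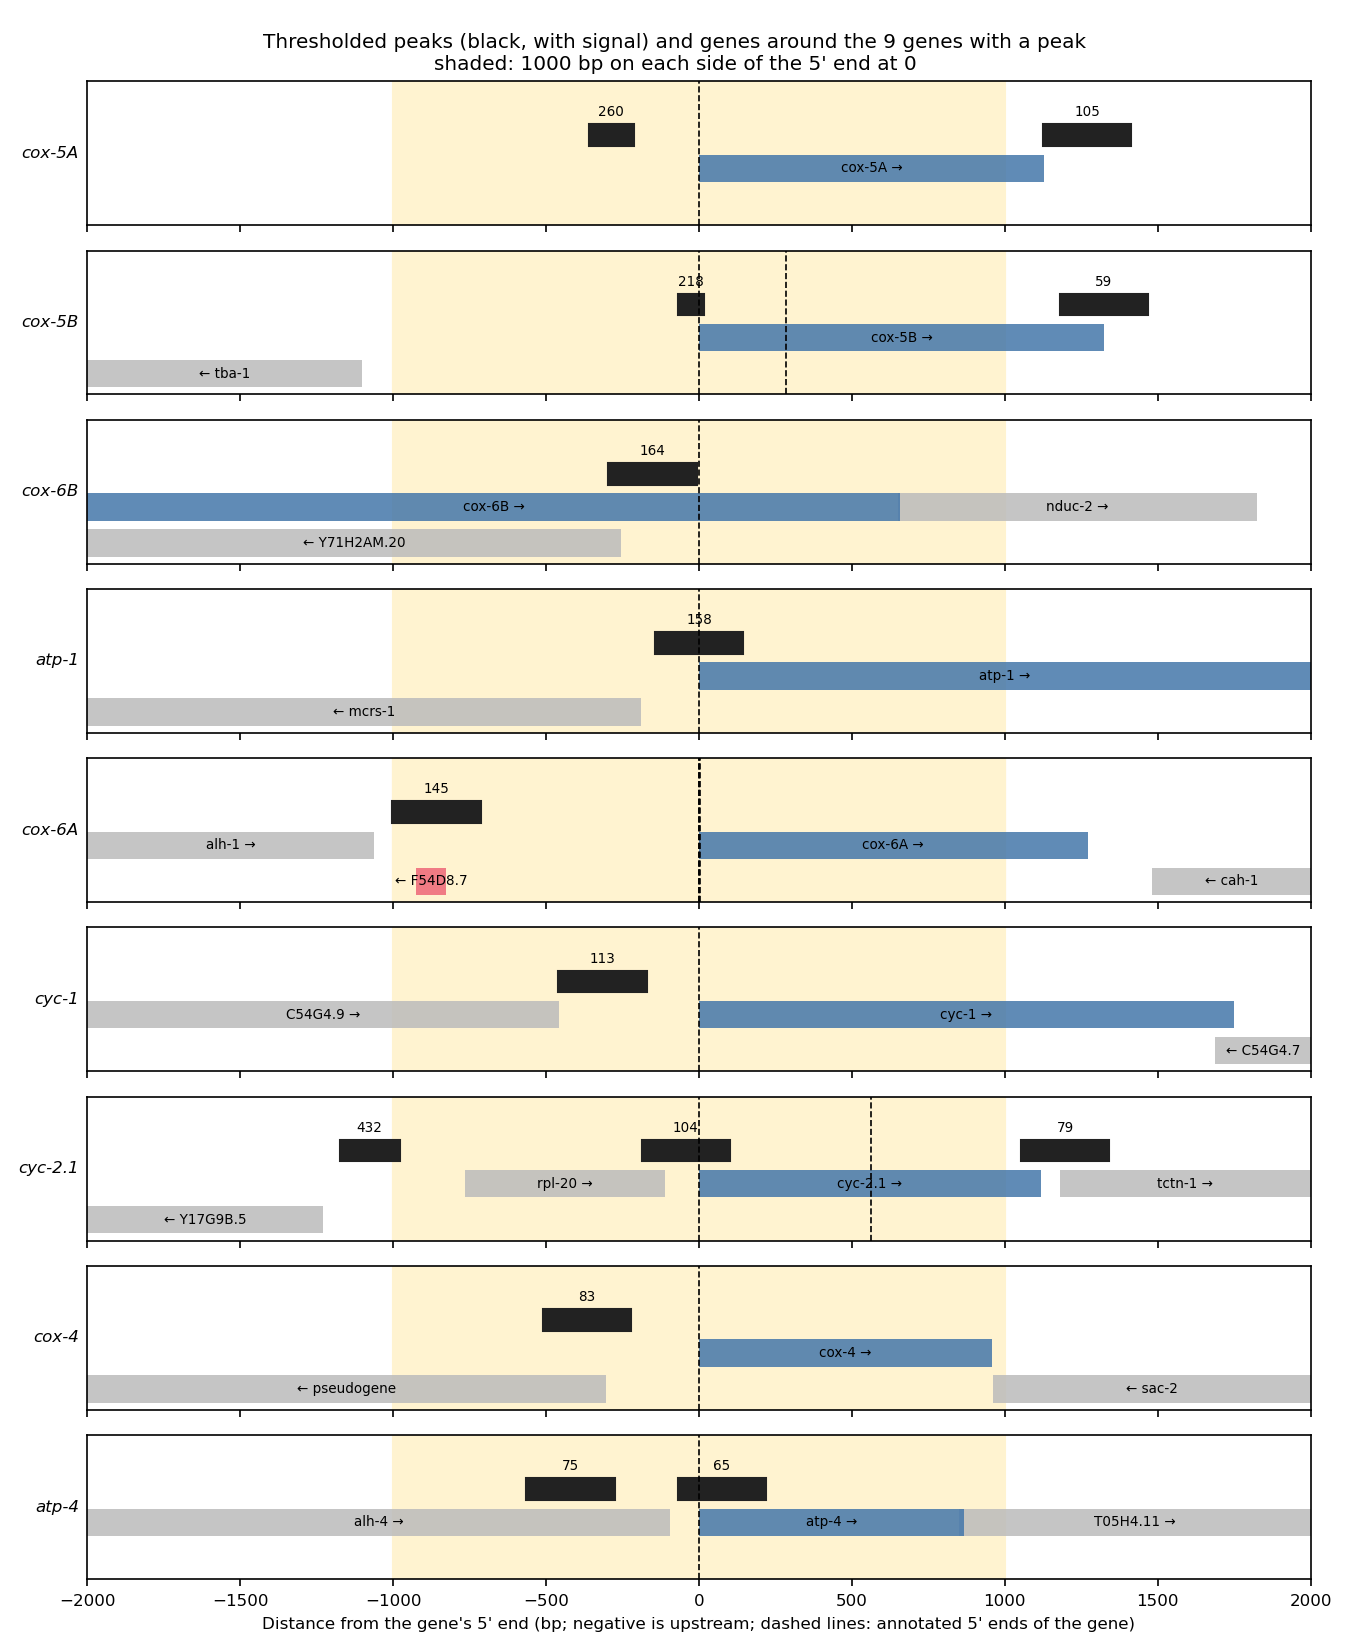
Thresholded peaks of both replicates (black bars with their signal) and annotated genes around the 9 genes with a peak, by distance from the 5′ end nearest the strongest peak (x axis, bp, negative is upstream), with the named gene drawn left to right. Blue bars are the named genes, grey bars other genes, the red bar is the small nuclear RNA gene, dashed lines are annotated 5′ ends of the named gene and shading marks 1000 bp on each side of 0. The peaks of cox-5A and cox-5B are the only ones in their shaded windows, with weaker ones of signal 105 and 59.4 beyond. That of cox-6A lies over F54D8.7. The peak of signal 432 between Y17G9B.5 and rpl-20 has its summit just outside the window of cyc-2.1, though its bar reaches into the shading. The cyc-2.1 peak of signal 79.5 lies beyond the shading, since it was counted from the other annotated 5′ end.

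In the ATP synthase, 2 of 6 genes had a peak (33.3%, interval 4.33% to 77.7%, all other genes 6.43%). The peak at atp-1, which encodes the alpha subunit of the F1 head (chrI:12652133-12652422, signal 158), had its summit at position 1, in the 5′ UTR. Its ranked signals were 67.6 in replicate 1 and 86.9 in replicate 2. The summit was at position −191 of mcrs-1, which is transcribed in the opposite direction, so the peak is shared by a divergent pair.

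The 2 peaks at atp-4, which encodes coupling factor 6 of the peripheral stalk, were the weakest at the 9 genes. The upstream one (chrV:6427388-6427677, signal 75.1, position −421) lay in the 3′ UTR of alh-4, the gene before atp-4 on the same strand, and had 42.1 and 33.8 in replicate 1 and replicate 2. The downstream one (chrV:6426893-6427182, signal 64.8, position 74) lay in coding sequence of atp-4 and had 31.7 and 32.5. Neither was in the thresholded list of either replicate.

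For atp-3, which encodes the oligomycin sensitivity conferral protein of the stalk, the strongest ranked signals were 64.4 in the list of both replicates, 35.6 in replicate 1 and 29.8 in replicate 2. Its score of 826 was the closest to the threshold of 830 among genes without a peak, and on the other side of it the downstream atp-4 peak had the lowest score of the 11, 908. For atp-2, the catalytic beta subunit, the signals were 50.8, 36.1 and 27.1. No list held a ranked peak at asg-2. Signals on either side of the threshold overlapped, since cox-16 without a thresholded peak had 68.9 and the downstream atp-4 peak had 64.8.

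The 11 peaks had a median signal of 113 (interquartile range 81.4 to 161), beside 80.8 (66.6 to 105) over the 1063 peaks near protein-coding genes, which include these 11. All 11 overlapped a peak of the conservative list, as did 843 (79.3%) of the 1063. In each replicate's thresholded list at once, 7 of the 11 (63.6%) were found, against 271 of the 1063 (25.5%). The median position was −151, and 8 of the 11 summits (72.7%) lay upstream, against 72.2% of all 1475 pairs of a peak and a gene, whose median position was −194.

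All ranked peaks, thresholded or not, gave 33 of the 42 genes a peak in each replicate, 3 genes in replicate 1 only, 3 in replicate 2 only and 3 in neither. Over all protein-coding genes, 61.2% had a ranked peak in replicate 1, 63.5% in replicate 2 and 47.4% had a ranked peak in each replicate. Across the 33 genes, Pearson's r between the log2 signals of the replicates was 0.82 and Spearman's rho was 0.65. Across the 24 of them without a thresholded peak they were 0.18 and 0.13, and they were 0.61 and 0.49 across 9465 protein-coding genes. These are descriptions across genes, which are not replicates. The strongest ranked peaks of the replicates lay within 100 bp of each other at 9 of 9 genes with a thresholded peak and at 10 of the 33 without one. Over all protein-coding genes, 17.0% had strongest peaks that close. The threshold that defines the 9 genes was applied to peaks called on both replicates, so their shared sites may come in part from that choice. It did not require a thresholded peak in each replicate. Of the 1063 peaks near protein-coding genes, 461 (43.4%) were in neither replicate's thresholded list. The low correlations likewise cover only genes that failed this threshold, and no conclusion about the genes is drawn from either.

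**Figure D3:**
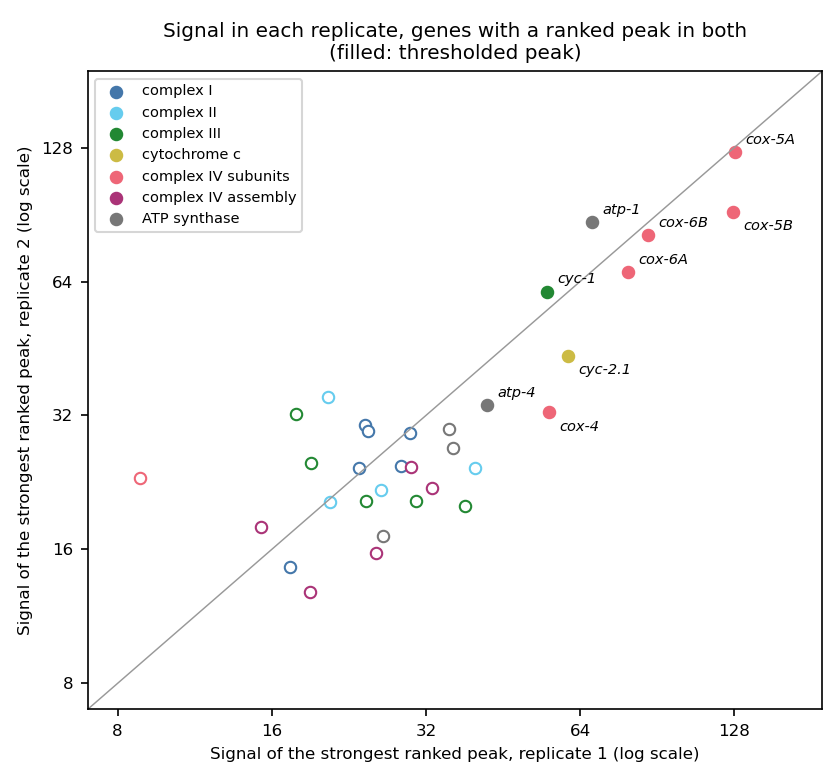
Strongest ranked signal within 1000 bp of a 5′ end in replicate 1 (x axis, log scale) and replicate 2 (y axis, log scale), in peak caller units, for the 33 genes with a ranked peak in each. Filled points have a thresholded peak of both replicates; these 9 genes run from 42.1 to 128 in replicate 1 and from 32.6 to 125 in replicate 2, with cox-5A highest in each.

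Genes of C. elegans are often transcribed together in operons, so each of the 42 genes was also examined for an upstream gene on the same strand that ended no more than 500 bp before it. There were 15 such downstream genes, and 3 of them (atp-4, cyc-1 and cyc-2.1) had a peak of their own. Over all protein-coding genes 6.46% had a peak, and the share over downstream genes alone is not given here. A further 6 of the 15 had a peak at the first gene of the run and not at their own 5′ end. The same held for 8.46% of the 4125 downstream genes among all protein-coding genes. Counting each gene by the first gene of its run gave 13 of 42 genes (background 7.37%). For cox-18 the first gene was Y55F3AR.2 (signal 230.5, thresholded in each replicate) and for cox-11 it was lin-54 (signal 204, thresholded in each replicate). The peaks at the first genes of the runs of nuo-4 (syf-2, signal 117), cox-15 (rpn-9, 102), ucr-11 (dad-1, 98.9) and nuo-5 (Y45G12B.2, 72.4) passed the threshold in 1 replicate each. The one at dad-1 (position −435) had tre-1 as its nearest gene. Whether these runs are operons was not tested, since the annotation used gives no operons.

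The 5 words of 6 bases with the highest ratio of their share near other summits to that in flanking windows were counted in the 11 windows of 101 bases, on both strands. GCGCGC occurred in 1 of the 11 (atp-1) and in 8.50% of 1683 other peaks, CGCGCG in 1 (cox-5B) and 6.48%, CGCGCA in 1 (cox-6B) and 9.80%, and CGCGGC in 1 (atp-4) and 7.43%. CCCGCG was in none of the 11 and in 5.76% of the others. These words overlap one another. Of the other words searched, TATAAA was in 1 window (cyc-1), beside 6.12% of the other peaks. None of the 11 windows held GAGAGA (12.7% of the other peaks), GCGTCTC (6.24% of them), TTCGAA (6.42%), CACGTG (3.57%) or ACTACAA (0.594%).

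The 301 bases around each gene's 5′ end, 250 bp before to 50 after, held GCGCGC at 3 of the 42 genes and at 3.58% of all protein-coding genes, and GCGTCTC at 5 of the 42 and 4.33% of all. TATAAA was found at 15 of the 42 genes and at 38.0% of all genes. A match is only a run of letters, and its absence says nothing of binding. The median number of CG steps was 5 in the 11 windows and 6 in those of the other peaks, and the median GC content was 49.5% and 45.5%. In windows of equal width 250 bp to 1 side, the medians were 3 CG steps in both sets, with 34.7% and 35.6% GC.

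By chromosome, peaks were at 4 of 12 genes of the set on I, 0 of 5 on II, 3 of 10 on III, 1 of 6 on IV, 1 of 4 on V and 0 of 5 on X. The share of all protein-coding genes with a peak was 10.5% on I and on III, 6.09% on II, 7.35% on IV, 4.02% on V and 2.16% on X. Of the 9 genes, 7 thus lay on the 2 chromosomes with the highest background.

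Other genes, in lists made by name for mitochondrial roles, were set beside the 42. Over all other protein-coding genes the share with a peak was 6.43%. Complex I genes under other names had a peak in 4 of 29 cases (13.8%, interval 3.89% to 31.7%). They were nduc-2, which shares the cox-6B peak of signal 164, nduf-2.2 (signal 164 at −806, nearest gene dlc-1), ndub-8 (129 at −171) and nduf-11 (58.0 at −162). ATP synthase genes under other names had a peak in 0 of 6 cases. In the list of cytochrome c and its maturation, 2 of 4 genes had one, namely sco-1, whose homologs deliver copper to complex IV (signal 121 at −184), and cchl-1, which attaches haem to cytochrome c (signal 72.8 at −930, nearest gene fndc-1).

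Of the 8 coenzyme Q synthesis genes, coq-2 had a peak (signal 59.8 at position 563). In the citric acid cycle and pyruvate dehydrogenase list, 4 of 20 genes (interval 5.73% to 43.7%) had a peak, at idh-1 (135 and 69.9), aco-2 (88.4, nearest gene eef-1B.1), dld-1 (77.6) and ogdh-2 (51.8). The annotation gives idh-1 as an NADP isocitrate dehydrogenase and ogdh-2 as a putative 2-oxoadipate dehydrogenase component, so the list name may not describe them. Of the 22 import and carrier genes, tin-9.1 (119 at position 994) and ant-1.1, an ADP/ATP carrier (92.4 at −28), had one. The mitochondrial ribosome had 7 of 70 (interval 4.12% to 19.5%), led by mrpl-15 (128 at −587) and mrpl-23 (102 at −994, in an intron of fars-1). Next were mrpl-28 (86.2 at −99) and mrpl-17 (85.8 at −694, nearest gene vbh-1). Of 12 chaperone, protease and genome upkeep genes, 3 had one, at hsp-60 (272 at −645, nearest gene Y22D7AL.10), clpp-1 (66.7 at −111, nearest gene mdt-22) and ubl-5 (41.5 and 25.3). The annotation gives ubl-5 as a ubiquitin-like protein, so the list name may not describe it. The interval of each of these lists included the 6.43% of all other genes, except that of cytochrome c and its maturation (6.76% to 93.2%). No difference between these lists and the 42 genes was tested.

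**Figure D4:**
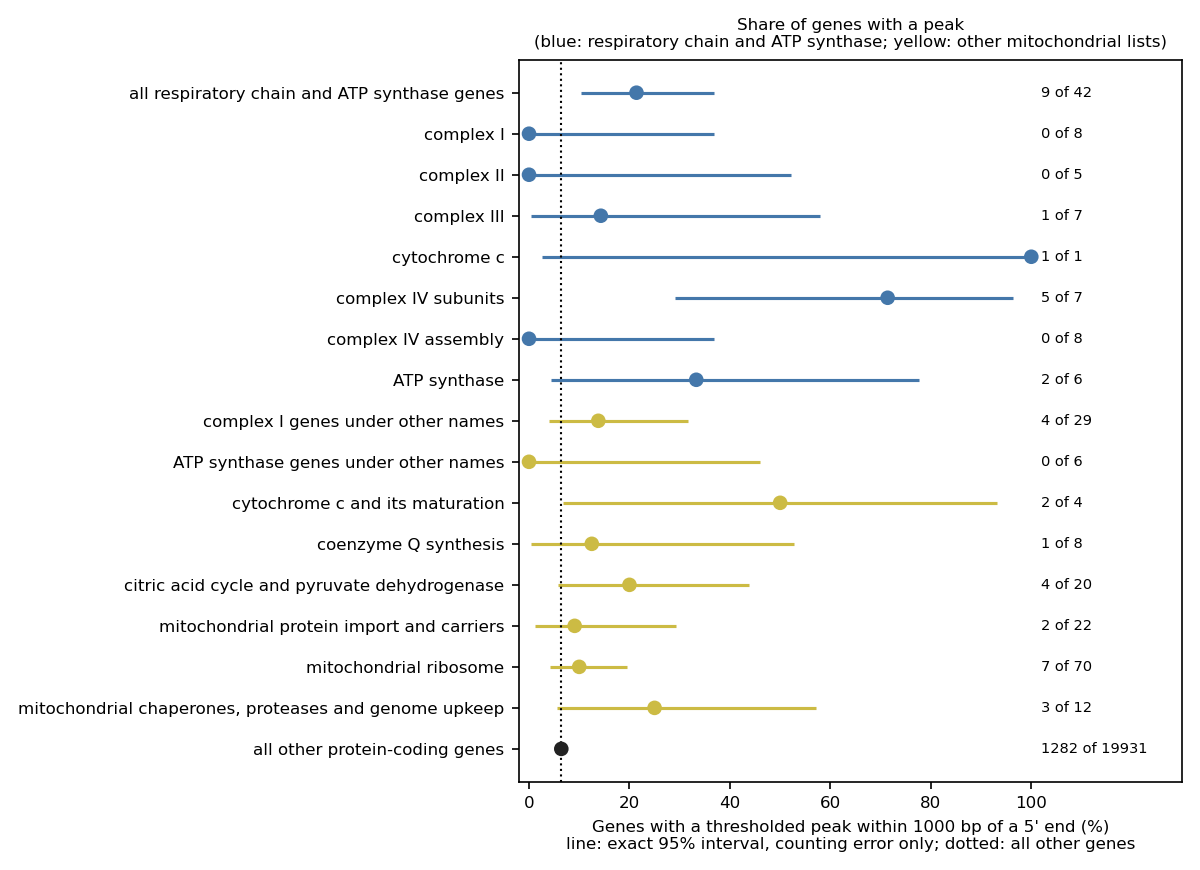
Share of genes with a thresholded peak within 1000 bp of a 5′ end (x axis, percent) for the 42 genes and their 7 role groups (blue), for 8 other mitochondrial lists (yellow) and for all other protein-coding genes (black), with the counts at the right. Lines are exact 95% intervals for counting error only, and the dotted line is the 6.43% of all other genes; complex IV subunits stand at 71.4% with an interval from 29.0%.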

How the data were processed

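Per the file headers and labels, the authors deposited peak lists on assembly ce11: ranked and thresholded lists of each replicate and of the pair, and a conservative list. The deposited signal of a peak is the peak caller's value, made with a control. The deposited score, at most 1000, follows the irreproducible discovery rate (IDR), and thresholded peaks have at least 830. The sources used here do not name the aligner or the peak caller.

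Summits were assigned to every protein-coding gene with an annotated 5′ end within 1000 bp (Ensembl release 115, 6 nuclear chromosomes; all 42 genes matched a RefSeq symbol). With 1 group and no control group, no p-values were computed. Genes were named if they had a thresholded peak, shared one, belonged to complex II, were among the 6 others of highest ranked signal, or were the strongest of another list (at most 4 per list); further names were chosen after their values were seen. The genes and lists were chosen with earlier results of these data known. Word counts took the 5 words most enriched over flanks at other peaks. The assignment was tested on simulated summits around the 5′ ends of gene records, and further transcript 5′ ends were not part of that test. Tools were Python 3.11.15 and its packages numpy 2.4.6, scipy 1.17.1, pandas 2.3.3 and matplotlib 3.10.9.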

Additional observations from a re-analysis of the deposited data

How the results depend on the processing

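The count of 9 genes with a peak became 15 with a window of 2000 bp (background 9.37%) and 15 with ranked peaks of a score of at least 540 (background 11.3%), and lay between 7 and 13 under the other settings. A window of 500 bp, or leaving out peaks near small RNA genes, lost cox-6A, and the nearest gene alone, or the 5′ end of the gene record, lost cox-6B. Without a replicate it ranged from 7 (replicate 2 alone, without atp-4 and cox-4) to 8. The share ranged from 16.7% to 35.7%, above the background each time. The median signal of 113 became 95.7 with 2000 bp and 145 with the upper part of the list, and 73.5 to 81.4 without a replicate, where another list's scale applies. The median position of −151 became −21 with 2000 bp, −284 with the gene record and −284 with the nearest gene, −98 without small RNA genes, and −217.5 to −150 without a replicate. Genes of the set with a ranked peak in each replicate numbered 7 at a score of at least 540, against 33 with no score limit. The share over all protein-coding genes at that score in each replicate is not given here. Whether this fall is particular to the set was therefore not tested. For the count of genes with a peak, the settings based on scores and on runs of genes were chosen after seeing the data. No paired analysis was possible because there was 1 group. Depth is unknown, so a weak peak cannot be told from one missed at low depth. Values rest on 2 replicates, and controls were not analysed here.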
